A study of Homo sapiens with 10 samples.

Results

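Chromatin modifiers and the DNA methylation machinery are described here as 48 genes, chosen by name and matched to the gene symbols of the count tables, out of 26485 genes listed. All 48 were listed, and 45 had enough reads to be tested among the 14932 genes that passed the expression filter. The genes write, read or remove methyl groups on DNA and histones, or move and deacetylate nucleosomes. They were compared between 2 populations of SW480, a human cell line from a colorectal adenocarcinoma, which is labelled wild type and was grown in serum. The populations were sorted by flow cytometry as positive or negative for ROBO1, a surface receptor of axon guidance, and are called ROBO1pos (SW480-CBC in the labels) and ROBO1neg (SW480-RSC). Each had 5 libraries of polyadenylated RNA. Nothing in the labels ties the libraries to separate cultures, and the p-values therefore reflect library-to-library spread that may be only technical. Each population is a sort of 1 cell line. In such bulk libraries, fewer cells that express a gene and less RNA of it per cell cannot be told apart.

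DNA methyltransferases add methyl groups to cytosine, and TET enzymes oxidise them so that they can be replaced by plain cytosine. Polycomb repressive complex 2 (PRC2) methylates lysine 27 of histone H3, and Polycomb repressive complex 1 (PRC1) binds that mark and ubiquitinates histone H2A; both keep developmental genes silent. Lysine demethylases of the KDM families and methyltransferases of the KMT2 family erase and write marks at promoters and enhancers, SWI/SNF complexes slide nucleosomes with the energy of ATP, and class IIa histone deacetylases act mainly as corepressors of MEF2 transcription factors. Genes of these complexes are often mutated in colorectal and other carcinomas.

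All 3 TET genes differed by more than 2-fold in the same direction, so the stretch before a transcript start of each, the most upstream one in the promoter table used, is shown first, with CG dinucleotides, the sites that these enzymes act on, in capitals. Sequences are from RefSeq (GRCh38.p14), 5′ to 3′ on the plus strand: TET1 at chr10:68560087-68560336, TET2 at chr4:105145625-105145874 and TET3 at chr2:73984660-73984909. The TET3 gene itself is annotated from 73983631, so its window lies inside the gene.
TET1: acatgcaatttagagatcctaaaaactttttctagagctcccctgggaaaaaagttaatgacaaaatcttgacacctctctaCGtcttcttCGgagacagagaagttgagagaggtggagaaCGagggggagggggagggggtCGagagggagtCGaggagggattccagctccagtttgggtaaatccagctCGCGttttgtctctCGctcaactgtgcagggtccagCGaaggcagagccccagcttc
TET2: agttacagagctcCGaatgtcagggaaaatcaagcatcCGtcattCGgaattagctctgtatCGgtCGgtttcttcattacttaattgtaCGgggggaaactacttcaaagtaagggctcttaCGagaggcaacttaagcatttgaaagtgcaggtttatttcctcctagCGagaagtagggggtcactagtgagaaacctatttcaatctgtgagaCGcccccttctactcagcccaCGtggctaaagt
TET3: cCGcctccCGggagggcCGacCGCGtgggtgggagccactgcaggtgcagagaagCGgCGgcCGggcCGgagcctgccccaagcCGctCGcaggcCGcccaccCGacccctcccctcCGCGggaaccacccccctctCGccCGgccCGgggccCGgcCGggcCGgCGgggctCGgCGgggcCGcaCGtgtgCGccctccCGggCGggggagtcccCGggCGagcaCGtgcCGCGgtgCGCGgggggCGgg
The windows of 250 bases held 9 CG dinucleotides for TET1, 10 for TET2 and 37 for TET3, where the median over 35116 windows of the same length was 11. As many as in TET3 were found in 4.00% of windows. The listed windows of the TET genes thus ranged from an ordinary to a high CG content. Over the 44 members with a window, the count ran from 1 to 48 with a median of 25.5. Methylation was not measured in this series, and a CG count says nothing about it.

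Expression is given as CPM, the reads of a gene scaled to library size with TMM factors, as mean ± SD over 5 libraries, and the log2 fold change (log2FC) is positive where ROBO1pos is higher. Genes were called at a Benjamini-Hochberg adjusted p under 0.05 by edgeR's quasi-likelihood test over all 14932 genes. Every adjusted p below is from that test, except those given after subtraction of neighbouring genes, which are described where they begin. Between 23228686 and 29539100 reads per library lay on genes. ROBO1, which checks the sort, ran from 400.0 to 462 CPM in ROBO1pos and from 5.63 to 9.04 in ROBO1neg. The populations differ in most genes: 82.0% of tested genes were called, 41.6% higher in ROBO1pos and 40.4% higher in ROBO1neg. Genes of the colorectal epithelium, the labelled cell type, summed to 5782 to 7042 CPM in ROBO1pos and 7981 to 10495 in ROBO1neg, which do not overlap, and KRT20 was at 0 in all libraries. Much of both sums was KRT18 (2343 CPM in ROBO1pos, 4095 in ROBO1neg) and KRT8 (2165 and 3755). Of the 10 genes tested in this list, 4 were called in each direction. VIL1 (503 and 27.7 CPM) and EPCAM (680 and 303) were higher in ROBO1pos. Markers of fibroblasts summed to 10.4 to 14.1 CPM in ROBO1pos and 14.02 to 22.7 in ROBO1neg, those of leukocytes to 3.83 to 5.17 and 4.89 to 6.94, and those of endothelium to 0.504 to 0.889 and 2.43 to 4.40. Of these lists, 4 of 10, 3 of 10 and 1 of 8 genes were tested, and COL3A1 and EMCN were at 0 in all libraries.

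Of the 45 members tested, 24 were called higher in ROBO1pos, 13 were called higher in ROBO1neg and 8 were not called. The share called, 82.2%, was that of all genes, and their median log2FC was 0.20 against 0.02 over all genes. A difference of 2-fold or more was called for 13 members (30.3% of all genes), 9 of them higher in ROBO1pos (13.5% of all genes) and 4 higher in ROBO1neg (16.8% of all genes). The groups' libraries did not overlap for 35 members, where 71.9% of all genes had no overlap. As a whole the members therefore differed about as often as other genes, and the results lie in which complex moved which way. To show the chromosomal surroundings, each log2FC was also set beside the median of the 20 nearest tested genes on each side, called its neighbours below. After subtraction of that median, 28 members were called higher in ROBO1pos and 10 higher in ROBO1neg (40.1% and 40.6% of all genes with a position). For these calls the remainder was divided by the gene's own standard error in a t-test. Adjustment was by Benjamini-Hochberg over the 14607 genes with a position. The neighbours' median was taken as free of error, so these adjusted p-values are lower than a full error would give.

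**Figure D1:**
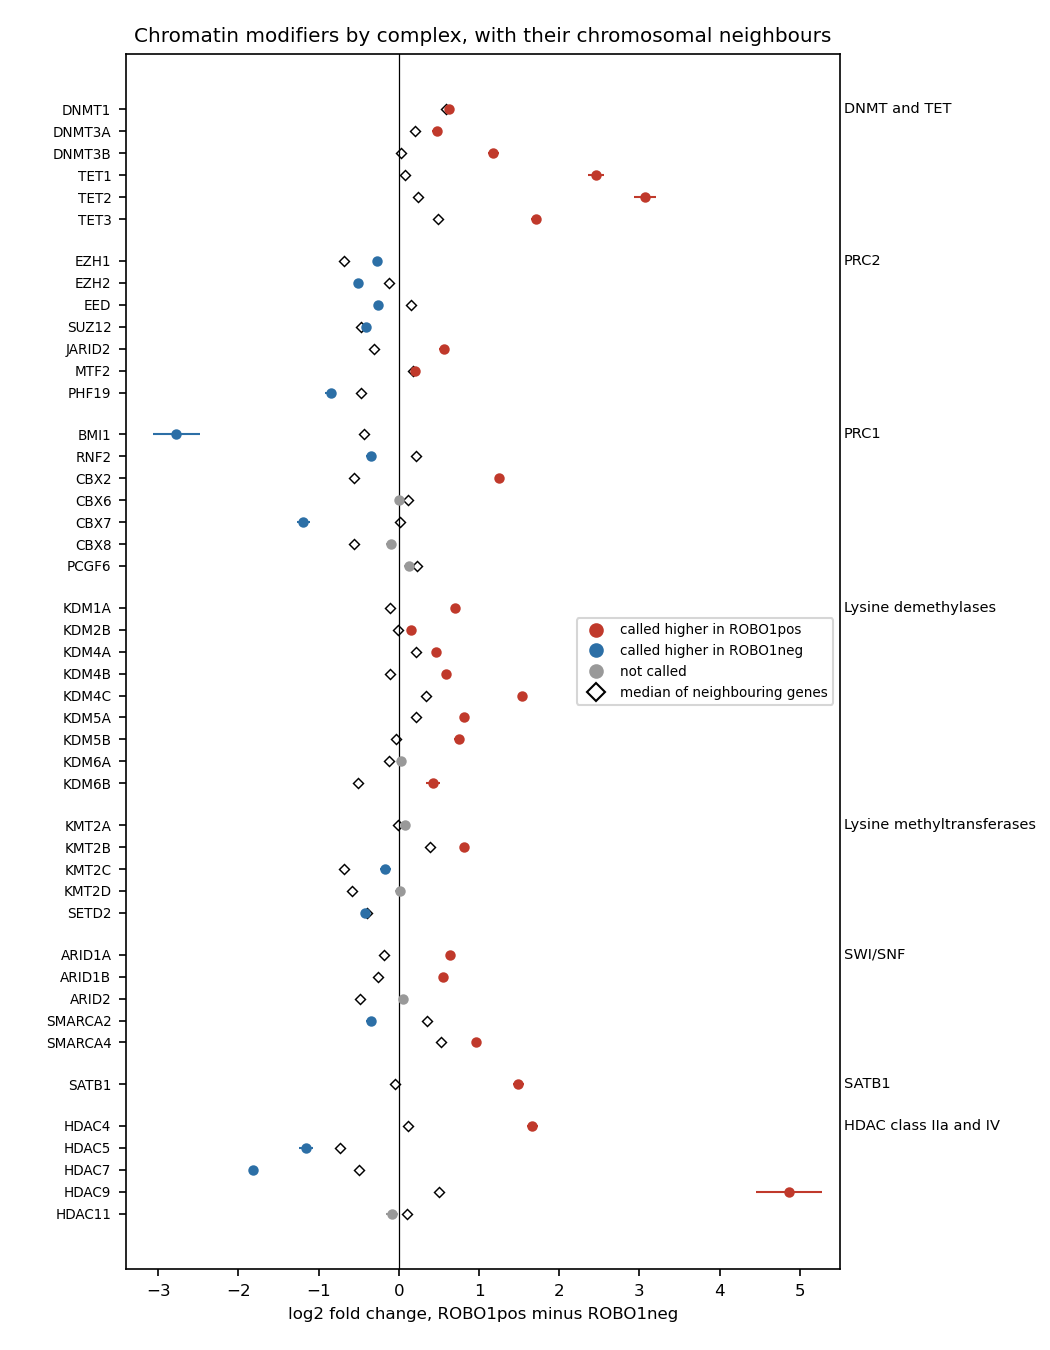
Log2 fold change (ROBO1pos minus ROBO1neg) of the 45 tested members by complex, with bars of 1 standard error, and the median of the neighbouring genes as open diamonds. All 6 DNA methylation genes lie to the right of 0, PRC2 genes lie on both sides, and HDAC9, at 4.87, lies opposite to HDAC7, at -1.81.

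All 6 genes that write or oxidise DNA methylation were higher in ROBO1pos, where 41.6% of all genes were, with a median log2FC of 1.45. The TET genes differed most. TET2, whose loss by mutation is common in blood cancers, was at 318, 258, 256, 219.9 and 178 CPM in ROBO1pos and at 31.4, 28.6, 32.2, 29.96 and 24.3 CPM in ROBO1neg. Its lowest ROBO1pos library was thus well above the highest ROBO1neg library, although ROBO1pos libraries fell in order from 318 in replicate 1 to 178 in replicate 5. The log2FC was 3.07 (SE 0.14, adjusted p = 5.9e-11). TET1, the family member best known from embryonic stem cells, was at 17.3, 19.5, 17.5, 15.1 and 14.96 CPM in ROBO1pos and at 3.31, 2.71, 2.73, 3.04 and 3.498 CPM in ROBO1neg, a log2FC of 2.46 (SE 0.10, adjusted p = 4.3e-11). TET3, which oxidises the paternal genome in the zygote, was at 186, 167, 186, 171 and 167 CPM in ROBO1pos and at 53.9, 50.1, 61.5, 53.3 and 49.0 CPM in ROBO1neg, a log2FC of 1.71 (SE 0.06, adjusted p = 9.0e-12). No libraries overlapped for any of the 3. Neighbours of TET1, TET2 and TET3 had medians of 0.08, 0.24 and 0.49, so most of each difference remained after subtraction.

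The methyltransferases differed less. DNMT3B, a de novo methyltransferase, was at 35.4, 32.0, 30.7, 29.1 and 28.8 CPM in ROBO1pos and at 14.7, 13.5, 14.9, 13.4 and 12.4 CPM in ROBO1neg, with no overlap and a log2FC of 1.18 (SE 0.07, adjusted p = 2.3e-09). DNMT3A, the other de novo enzyme, was at 44.6 ± 3.97 CPM against 32.1 ± 1.89 (log2FC 0.48, SE 0.07, adjusted p = 1.0e-05; 0.27 after subtraction of its neighbours). DNMT1, which copies methylation onto new DNA, was at 315 ± 12.7 against 204 ± 4.49 CPM (log2FC 0.63, SE 0.04, adjusted p = 1.8e-09). DNMT1 lies on chromosome 19 from 10133346 to 10194953 (GRCh38.p14), where the neighbours' median was 0.58. After subtraction its value was 0.05 and no longer called (adjusted p = 0.271). Expressed per kilobase of merged exon, DNMT1 was the most abundant of the 6 in both populations, at 57.8 CPM per kb in ROBO1pos and 37.3 in ROBO1neg. TET2 and TET3 followed in ROBO1pos at 15.6 and 15.3 CPM per kb, and their ranges over libraries overlapped, whereas in ROBO1neg TET2 (1.86) lay below TET3 (4.67).

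**Figure D2:**
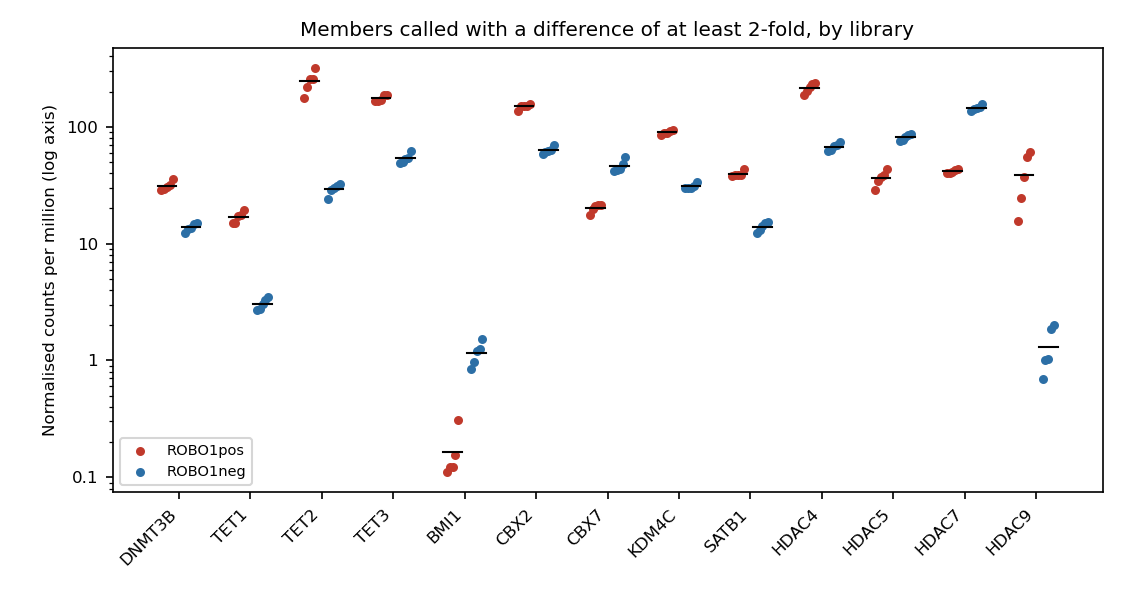
TMM-scaled CPM, on a log axis, of the 13 members called with a difference of at least 2-fold. Each point is 1 library, ordered by value and not by replicate number, and each bar is the mean of 5 libraries. TET2 reaches 178 to 318 in ROBO1pos and 24.3 to 32.2 in ROBO1neg, and HDAC9 has the widest spread in ROBO1pos, from 15.6 to 60.3.

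PRC2 went mostly the other way, but by small amounts. Of the 7 genes, 5 were called higher in ROBO1neg and 2 in ROBO1pos (40.4% and 41.6% of all genes). The median log2FC was -0.27, with no difference of 2-fold. EZH2, the main catalytic subunit, was at 75.4, 72.4, 80.7, 71.2 and 75.0 CPM in ROBO1pos and at 105, 104, 116, 107 and 98.8 CPM in ROBO1neg. These did not overlap (log2FC -0.50, SE 0.05, adjusted p = 3.2e-07). PHF19, an accessory subunit that guides PRC2 to chromatin, was at 43.96 ± 4.92 against 79.1 ± 3.87 CPM (log2FC -0.85, SE 0.07, adjusted p = 5.1e-08). Its neighbours had a median of -0.47, and its value was -0.38 after subtraction. EED, which reads the methylated lysine, was at 39.1 ± 2.21 against 46.9 ± 2.34 CPM, a log2FC of -0.26 (-0.42 after subtraction). JARID2, an accessory subunit that binds nucleosomes, was higher in ROBO1pos at 39.5 ± 2.32 against 26.6 ± 2.04 CPM (log2FC 0.57, SE 0.06), although its neighbours had a median of -0.30, and its value after subtraction was 0.87. MTF2, a relative of PHF19, was also higher in ROBO1pos with a log2FC of 0.20 (SE 0.04), which fell to 0.02 and was not called after subtraction of its neighbours. SUZ12 (chromosome 17, 31937007 to 32001038) had a log2FC of -0.40, its neighbours -0.47, and a value of 0.06 after subtraction (adjusted p = 0.155). EZH1, the second catalytic subunit (chromosome 17, 42700275 to 42745040), was called higher in ROBO1neg at -0.27 but higher in ROBO1pos, at 0.42 (adjusted p = 1.3e-06), once the neighbours' median of -0.69 was removed. After removal, 2 of the 7 genes were called higher in ROBO1pos and 3 in ROBO1neg (40.1% and 40.6% of all genes with a position).

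EZH2 is also a gene of proliferating cells. Of 39 S phase genes, 12 were called higher in ROBO1pos and 19 higher in ROBO1neg (41.6% and 40.4% of all genes). Their median log2FC was -0.12, and their summed level was 4807 to 5288 CPM in ROBO1pos and 5351 to 5895 in ROBO1neg. Of 40 genes of G2 and mitosis, 25 were called higher in ROBO1pos and 6 higher in ROBO1neg (median 0.19; summed levels 4761 to 5636 and 4520 to 5167 CPM). TIPIN, EXO1 and POLE were the S phase genes highest in ROBO1pos by this measure (0.91, 0.54 and 0.54), and CCNE2, RRM2 and CDC6 those highest in ROBO1neg (-1.73, -1.57 and -0.93). PSRC1, CENPF and G2E3 led the G2 and mitosis genes in ROBO1pos (0.90, 0.81 and 0.74), and ECT2, CKAP2 and AURKB in ROBO1neg (-1.17, -0.63 and -0.49). The neighbours of EXO1 and CENPF had medians of 0.88 and 0.85, above the genes themselves. The part of the cell cycle in the differences of EZH2 and DNMT1 was not tested.

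In PRC1 the interchangeable CBX subunits, which bind methylated histone H3, differed in opposite directions. CBX2 was at 157, 137, 151, 152 and 149.7 CPM in ROBO1pos and at 59.0, 63.4, 69.2, 62.6 and 60.3 CPM in ROBO1neg (log2FC 1.25, SE 0.05, adjusted p = 2.8e-11). CBX7, the subunit that prevails in embryonic stem cells, was at 21.4, 17.6, 21.0, 21.6 and 19.6 CPM in ROBO1pos and at 54.9, 47.6, 43.1, 41.4 and 43.5 CPM in ROBO1neg (log2FC -1.19, SE 0.08, adjusted p = 7.3e-09). Neither gene had overlapping libraries. CBX2 stood out from the neighbours on chromosome 17, whose median was -0.56, while CBX8, which lies next to it from 79792132 to 79797077, was not called at 23.2 ± 0.712 against 24.9 ± 1.56 CPM. CBX8 had a log2FC of -0.10, and of 0.46 (adjusted p = 2.9e-06) with the neighbours' median removed. CBX6 was at 195 ± 17.4 against 194 ± 11.2 CPM and was not called. RNF2, the ubiquitin ligase of PRC1, was higher in ROBO1neg at 29.3 ± 1.30 against 22.97 ± 1.38 CPM (log2FC -0.35, SE 0.06, and -0.56 after subtraction), and PCGF6, a subunit of a variant complex, was not called at 0.13 (SE 0.07).

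The counts of several PRC1 genes and of 1 SWI/SNF gene are doubtful. BMI1, the PCGF subunit that gave PRC1 its role in stem cell self-renewal, was called higher in ROBO1neg with a log2FC of -2.78 (SE 0.29, adjusted p = 7.0e-07), but this rests on 21 reads over all ROBO1pos libraries and 146 over all ROBO1neg libraries. Its libraries held 3 to 8 and 20 to 35 reads, at 0.155, 0.111, 0.310, 0.121 and 0.123 CPM in ROBO1pos and 0.850, 1.25, 1.52, 1.19 and 0.974 CPM in ROBO1neg. The read-through gene COMMD3-BMI1, which spans BMI1, is listed at 0 in all libraries, and how reads in shared exons were counted was not tested. RING1, a second ligase of PRC1, and PCGF2 are listed at 0 in all libraries, and SMARCB1, a core subunit of SWI/SNF, has 1 read in each population. Among the 20 nearest listed genes, 15 around RING1, 12 around PCGF2 and 16 around SMARCB1 also had under 10 reads over all libraries. No level was therefore read from these 3 genes.

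Of the 9 histone lysine demethylases, 8 were called higher in ROBO1pos and 0 higher in ROBO1neg (41.6% and 40.4% of all genes). Their median log2FC was 0.59 against 0.02 over all genes. DESeq2 called the same numbers, 8 and 0. KDM4C, which removes methyl groups from lysine 9 of histone H3, was at 92.9, 87.8, 84.2, 88.4 and 94.8 CPM in ROBO1pos and at 33.7, 30.2, 31.2, 30.1 and 29.97 CPM in ROBO1neg, with no overlap (log2FC 1.53, SE 0.05, adjusted p = 1.9e-12). Its relatives KDM4A and KDM4B had smaller log2FC values of 0.47 (SE 0.06) and 0.59 (SE 0.04), and that of KDM4A was 0.26 after subtraction. KDM4A shares 425 exonic bases with KDM4A-AS1 on the opposite strand, at 1.64 CPM in ROBO1pos and 2.64 in ROBO1neg. KDM5A and KDM5B, which erase the promoter mark on lysine 4, were at 193 ± 6.54 against 110.0 ± 6.58 CPM and at 118 ± 6.44 against 70.2 ± 5.57 CPM. KDM1A (LSD1), which removes lower methylation states of lysine 4, was at 219.7 ± 6.76 against 135 ± 5.999 CPM (log2FC 0.70, SE 0.04, adjusted p = 1.1e-09). It was the most abundant demethylase of the list per kilobase, at 70.2 CPM per kb in ROBO1pos and 43.2 in ROBO1neg. KDM6B, which opposes PRC2 by erasing lysine 27 methylation, was at 56.9 ± 4.11 against 42.3 ± 6.12 CPM (log2FC 0.42, SE 0.09, adjusted p = 4.7e-04, and 0.93 after subtraction), while KDM6A, which removes the same mark, was at 51.8 ± 2.61 against 50.7 ± 2.63 CPM and was not called. KDM2B, which ties PRC1 to CG-rich promoters, was called at 0.16 (SE 0.05, adjusted p = 0.016), but its libraries overlapped between groups, and without ROBO1neg replicate 4 it was no longer called (0.13, adjusted p = 0.051). KDM2B shares 439 exonic bases with RNF34 on the opposite strand, a gene whose means were 32.6 (ROBO1pos) and 39.7 CPM (ROBO1neg), and the part of those reads in its count was not tested. After the neighbours' median was removed, all 9 demethylases were called higher in ROBO1pos, where 40.1% of all genes with a position were.

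Among histone methyltransferases, 1 of 5 was called higher in ROBO1pos, against 2 in ROBO1neg (41.6% and 40.4% of all genes). The share called, 60%, was under the 82.0% of all genes. After removal of the neighbours' median the balance turned, with 3 called higher in ROBO1pos and 0 in ROBO1neg (40.1% and 40.6% of all genes with a position). KMT2B, which methylates lysine 4 at CG-rich promoters, was at 146, 139, 149, 141 and 155 CPM in ROBO1pos and at 86.6, 81.4, 85.1, 79.6 and 84.5 CPM in ROBO1neg (log2FC 0.81, SE 0.04, adjusted p = 2.6e-10). Its neighbours had a median of 0.38, and its value was 0.42 after subtraction. SETD2, which marks transcribed gene bodies on lysine 36, was higher in ROBO1neg at 173 ± 3.72 against 129.7 ± 7.42 CPM (log2FC -0.42, SE 0.04). Its neighbours on chromosome 3 had a median of -0.39, and its value after subtraction was -0.02 (adjusted p = 0.625). KMT2C, an enhancer methyltransferase, had a log2FC of -0.17 (SE 0.07, adjusted p = 0.028) with overlapping libraries. It lost the call without ROBO1pos replicate 1 (-0.14), ROBO1pos replicate 2 (-0.16), ROBO1neg replicate 1 (-0.14) or ROBO1neg replicate 3 (-0.14), and was called higher in ROBO1pos, at 0.51, with the neighbours' median of -0.68 removed. KMT2A and KMT2D were not called, at 209 ± 10.4 against 197 ± 17.01 CPM and at 174 ± 9.91 against 173 ± 10.5 CPM, but KMT2D was called higher in ROBO1pos after subtraction of its neighbours (0.59, adjusted p = 1.0e-07).

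In SWI/SNF, 3 of 5 tested genes were called higher in ROBO1pos and 1 higher in ROBO1neg (41.6% and 40.4% of all genes). The share called, 80%, was near the 82.0% of all genes. The pair of alternative ATPases diverged. SMARCA4 (BRG1) was at 334, 339, 338, 339 and 382 CPM in ROBO1pos and at 176, 178, 182, 182 and 173 CPM in ROBO1neg (log2FC 0.96, SE 0.04, adjusted p = 8.0e-11). SMARCA2 (BRM) was at 66.0, 66.4, 75.8, 78.9 and 74.6 CPM in ROBO1pos and at 99.5, 87.0, 93.7, 91.4 and 89.6 CPM in ROBO1neg (log2FC -0.35, SE 0.06, adjusted p = 5.3e-05). Groups did not overlap for either. Their neighbours had positive medians of 0.52 and 0.36, so the value of SMARCA4 was 0.43 after subtraction and that of SMARCA2 was -0.71. ARID1A and ARID1B, alternative subunits of the BAF form of the complex, were both higher in ROBO1pos, at 181 ± 6.78 against 117 ± 4.28 CPM and at 122 ± 2.79 against 83.2 ± 4.92 CPM. ARID2, which belongs to the PBAF form, was at 70.2 ± 2.17 against 67.7 ± 4.15 CPM and was not called, though it was after subtraction of its neighbours (0.53, adjusted p = 1.1e-07).

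SATB1, a nuclear matrix protein that tethers chromatin loops, was higher in ROBO1pos. It was at 38.4, 38.5, 38.5, 43.1 and 37.7 CPM there and at 15.04, 13.1, 14.1, 12.3 and 15.4 CPM in ROBO1neg, with no overlap (log2FC 1.49, SE 0.07, adjusted p = 1.1e-10). Its neighbours had a median of -0.04.

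Class IIa histone deacetylases divided, 2 higher in ROBO1pos and 2 higher in ROBO1neg, each by more than 2-fold. Such differences were called for 13.5% and 16.8% of all genes. HDAC9 was at 60.3, 55.6, 37.3, 24.7 and 15.6 CPM in ROBO1pos and at 1.02, 0.689, 2.00, 1.84 and 1.01 CPM in ROBO1neg. ROBO1pos libraries spread widely, falling in order from replicate 1 to replicate 5, yet the lowest of them was above all of ROBO1neg (log2FC 4.87, SE 0.41, adjusted p = 6.2e-08). HDAC4 was at 186, 201, 217, 230.4 and 239 CPM in ROBO1pos and at 74.6, 62.7, 68.4, 69.9 and 63.5 CPM in ROBO1neg (log2FC 1.66, SE 0.07, adjusted p = 4.5e-11). Its ROBO1pos libraries rose in order from replicate 1 to replicate 5. Other members also ran in replicate order in ROBO1pos. DNMT1 rose from 298 to 332 CPM and CBX6 from 170 to 216. DNMT3B fell from 35.4 to 28.8 CPM and KDM6A from 53.9 to 48.2, and TET2 fell as given above. The orders are thus not particular to the deacetylases. Their cause was not tested, and the main fit held no term for replicate number. HDAC7 and HDAC5 were higher in ROBO1neg. HDAC7 was at 42.7, 40.9, 40.4, 40.1 and 43.5 CPM in ROBO1pos and at 146, 158, 146, 136 and 143 CPM in ROBO1neg (log2FC -1.81, SE 0.05, adjusted p = 3.2e-13). HDAC5 was at 43.5, 34.2, 38.4, 37.1 and 28.97 CPM in ROBO1pos and at 86.4, 82.4, 85.4, 76.3 and 76.0 CPM in ROBO1neg (log2FC -1.16, SE 0.09, adjusted p = 1.5e-08). None of the 4 had overlapping libraries. HDAC5 lies on chromosome 17 among neighbours with a median of -0.74, and its value was -0.42 (adjusted p = 4.3e-04) after subtraction. HDAC7 lies on chromosome 12 from 47782722 to 47821344 and shares 32 exonic bases with SLC48A1 on the opposite strand, a gene with a log2FC of -4.72, at 18.9 CPM in ROBO1pos and 499 in ROBO1neg. Whether counting used strand is not known from the sources used, and the part of SLC48A1 reads in the HDAC7 count was not tested. Per kilobase, HDAC4 was the most abundant of these genes in ROBO1pos (23.9 CPM per kb) and HDAC7 in ROBO1neg (32.9 CPM per kb). HDAC11, the class IV enzyme, was at 24.4 ± 1.93 against 25.9 ± 2.65 CPM and was not called, with a value of -0.18 (adjusted p = 0.047) after subtraction.

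HDAC9 was the member with the largest difference, and the stretch around its most upstream listed start (RefSeq, GRCh38.p14, chr7:18086575-18086834, plus strand) is shown because it holds the consensus motif of the MEF2 factors, in capitals, which class IIa deacetylases bind.
HDAC9: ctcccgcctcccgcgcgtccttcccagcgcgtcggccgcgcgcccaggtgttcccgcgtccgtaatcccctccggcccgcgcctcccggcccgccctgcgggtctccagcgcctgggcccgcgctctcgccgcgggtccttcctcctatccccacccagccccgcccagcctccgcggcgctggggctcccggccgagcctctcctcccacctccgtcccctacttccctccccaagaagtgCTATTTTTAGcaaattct
The motif begins 8 bases before the start and runs across it. It was searched on both strands as the MEF2 consensus, after the sequence had been seen, in windows of 300 bases, and 0.572% of 35116 windows held it. Among the 44 members with a window, HDAC9 alone held it, in 1 of its 5 windows. A match is a run of letters and does not show that a factor binds there.

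Ratios of related members within a library do not depend on how libraries are scaled. The ratio of HDAC4 to HDAC7 reads was between 4.35 and 5.74 in ROBO1pos and between 0.396 and 0.515 in ROBO1neg, so the more counted of the pair changed. For HDAC4 over HDAC5 the ratio was 4.27 to 8.26 against 0.761 to 0.916. For CBX2 over CBX7 it was 7.04 to 7.77 against 1.08 to 1.61, and for SMARCA4 over SMARCA2 it was 4.30 to 5.12 against 1.77 to 2.05. TET2 was read more often than TET3 in ROBO1pos, at 1.07 to 1.70 reads for each, and less often in ROBO1neg, at 0.497 to 0.581. The ratio of EZH2 to EZH1 differed little, at 1.71 to 1.88 against 1.92 to 2.34, as did that of KMT2C to KMT2D, at 0.559 to 0.607 against 0.626 to 0.704. All 13 pairs had ranges that did not overlap, where 71.9% of all single genes had no overlap, and no such share was computed for pairs of other genes. The pairs were chosen with these data known, and the ratios are a description with no test.

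**Figure D3:**
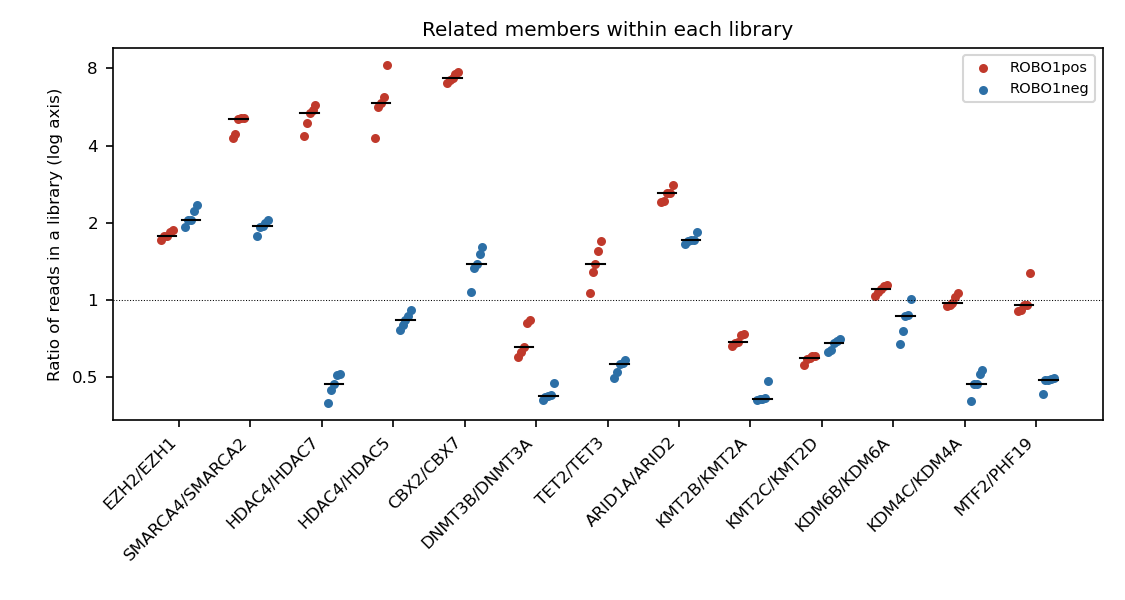
Ratio of reads of related members within each library, on a log axis, with 0.5 added to each count. Each point is 1 library, ordered by value, and each bar is the median of 5. HDAC4 over HDAC7 lies above 4 in all ROBO1pos libraries and below 1 in all ROBO1neg libraries.

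The other genes of the same machinery, 200 tested genes in 9 lists, were called higher in ROBO1pos in 99 cases and higher in ROBO1neg in 65, with a median log2FC of 0.11 and 82.0% called. Among 22 readers and regulators of DNA methylation, 10 were higher in ROBO1pos and 8 higher in ROBO1neg. Genes named from each list are called genes of at least 5 CPM with no overlap and the largest log2FC values, up to 3 in each direction. Here the 3 named for ROBO1pos were CXXC4, a TET2-binding protein, at 6.30, IDH2, which makes the cosubstrate of TET enzymes, at 2.58, and TDG, a glycosylase that removes oxidised methylcytosine, at 1.64. IDH1 of the same list, named outside this rule, went the other way at -0.72 (109 CPM in ROBO1pos and 179 in ROBO1neg). Higher in ROBO1neg were the methyl-DNA readers ZBTB38 and ZBTB4 at -1.72 and -1.25, and MBD4, a second glycosylase, at -0.81. Of 6 other PRC2 subunits, 4 had higher levels in ROBO1neg and 1 in ROBO1pos (median -0.47), which was the direction of most PRC2 members. PHF1 was at -0.94, AEBP2 at -0.57 and LCOR at -0.55. The level of PHF1 was low, 2.77 CPM in ROBO1pos and 5.31 in ROBO1neg. Whether its reads were counted in full was not tested, so the direction of PRC2 should not rest on it. Other PRC1 subunits divided evenly, with 11 of 26 higher in each population, 42.3% each way and near the shares of all genes. ASXL3, SCML2 and AUTS2 were at 7.12, 2.11 and 1.59, and SCML1, PHC3 and PHC2 at -1.47, -1.39 and -1.20.

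Other lysine demethylases had 7 of 12 genes higher in ROBO1pos and 3 in ROBO1neg (median 0.19). Those were 58.3% and 25% of the list, where 41.6% and 40.4% of all genes were called in these directions. KDM8 and KDM7A were at 1.36 and 1.14 and KDM5C at 0.26, while KDM2A, KDM1B and PHF2 were at -0.48, -0.27 and -0.18. COMPASS subunits and other lysine methyltransferases had 23 of 35 genes higher in ROBO1pos and 6 in ROBO1neg (median 0.24). Named by the same rule were SMYD3 at 1.37, CXXC1, a CG-binding subunit of COMPASS, at 1.30 and SUV420H2 at 1.05, against SETD7, WDR82 and PAXIP1 at -1.07, -0.74 and -0.57. Other SWI/SNF subunits had 11 of 23 genes higher in ROBO1pos and 8 in ROBO1neg, with BCL11A, BRD7 and SS18 at 5.72, 1.40 and 0.99 and SMARCD3, ACTL6A and SMARCD1 at -0.84, -0.74 and -0.64. BCL11A was at 29.9 ± 4.19 CPM in ROBO1pos and is better known as a repressor of fetal globin.

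Other deacetylases, sirtuins and corepressors had 15 of 31 genes higher in ROBO1pos and 9 in ROBO1neg (median 0.09). RCOR2, a partner of KDM1A, was at 3.46, RCOR3 at 0.88 and the class I deacetylase HDAC2 at 0.77, against CHD3, TBL1XR1 and SIRT7 at -1.64, -1.07 and -0.74. Acetyltransferases and BET readers had 9 of 20 genes higher in ROBO1pos and 8 in ROBO1neg. KAT2B, a coactivator acetyltransferase, was at -1.99, followed by HAT1 at -0.82 and KAT7 at -0.36, and the positive values of KAT5, BRD8 and KAT8 were 0.50, 0.47 and 0.43. Genes of chromatin architecture had 12 of 25 genes higher in ROBO1pos and 8 in ROBO1neg. CTCFL, a germline relative of the insulator protein CTCF, was at 6.76, TRIM28 at 0.97 and LMNB1 at 0.55, against HMGA2, LMNB2 and CBX1 at -2.48, -1.51 and -0.65. For PHF2, PAXIP1, ACTL6A, KAT7 and CBX1 the median of the neighbouring genes was further below 0 than the gene, at -0.56, -0.83, -0.90, -0.69 and -1.003, so their direction turns relative to their surroundings. Among others, SMYD3, CXXC1, MBD4, SMARCD1 and TBL1XR1 differed in the direction of their neighbours. Those medians were 0.92, 0.96, -0.65, -0.56 and -0.90, so these values are partly shared with the surroundings. These genes were tested in the same fit, and the lists describe counts only.

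**Figure D4:**
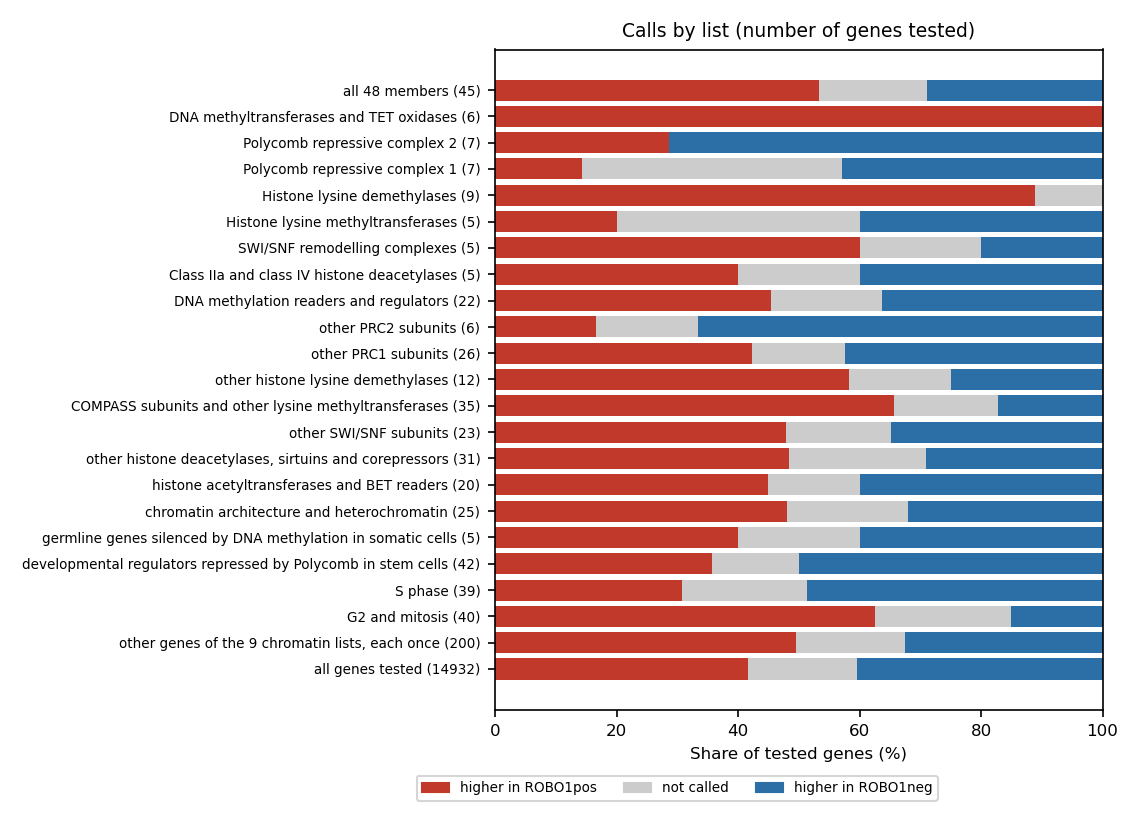
Share of tested genes, in percent, that were called higher in ROBO1pos, not called, or called higher in ROBO1neg, for each list, with the number of genes tested in brackets. The 6 DNA methylation genes were all called higher in ROBO1pos and the 9 demethylases held no gene called higher in ROBO1neg, against 41.6% and 40.4% of all genes.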

How the data were processed

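RNA from 10 libraries, 5 ROBO1pos and 5 ROBO1neg, was analysed. The authors deposited raw counts of reads per gene symbol, 1 table per library. Tools named in the submitters' processing notes are bcl2fastq, FastQC, DESeq2 1.24.0, SAMtools 1.9 and STAR 2.6.0c, and the genome build is GRCh38. How reads were counted, with which annotation and whether by strand, is not stated in what was used here. Entries that name no gene stayed out of totals and tests. These were reads outside annotated features (15.8% of all reads in ROBO1pos and 14.6% in ROBO1neg, on average), reads with more than 1 alignment (24.6% and 21.2%) and ambiguous reads (0.806% to 0.881%).

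Counts were analysed in R 4.3.3 with edgeR 4.0.16 (filterByExpr, TMM, quasi-likelihood, group only). The standard error is the size of the log2 fold change over the square root of F. Counts were simulated for 14822 genes of this comparison, 200 of them changed, with 1 dispersion for all genes. Of genes changed by 1 on the log2 scale 100% were called, of those changed by 0.5 88.5%, and of unchanged genes 0.116%. In the data 82.0% of genes were called, a far larger share than was changed in the simulation. The 0.116% therefore does not carry over to this comparison. RefSeq positions (GRCh38.p14) were found for 13663 tested genes under the listed symbol and for 944 more under a former symbol. Exon lengths came from GENCODE 29 and may not be those used for counting.

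Named genes were ROBO1, all 48 members (each library given for called members with 1 CPM or more in either group and a log2 fold change of 1 or more in size, and for a few others as examples), and from each list of other genes up to 3 called genes per direction with the largest differences, with 5 CPM or more in either group and without overlap of libraries. Members and lists were chosen with earlier results of these data known. Libraries of a group were compared in pairs, and all 20 pairs differed beyond sampling noise (chi-square over its degrees of freedom, 3.55 to 22.0), so none was counted as a copy. Alternatives were RLE, upper quartile and no scaling, a looser and a stricter filter, DESeq2 1.42.0, limma-voom (limma 3.58.1), testing against 1.5-fold, a block for replicate number, leaving out single libraries, and removal of the median of the 20 nearest tested genes on each side.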

Additional observations from a re-analysis of the deposited data

Results flagged for a closer look

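In 9 of the 92 groups of 5 libraries checked (each tested member and ROBO1 in each population), 1 library lay far from the other 4 by Dixon's criterion, which chance meets in about 1 of 20 groups. The low ones were EZH1 at 45.8 CPM in ROBO1neg replicate 4 (others 50.7 to 52.5), SUZ12 at 107 CPM in ROBO1pos replicate 1 (others 112 to 114), KDM4B at 61.3 CPM in ROBO1pos replicate 5 (others 66.3 to 68.2), KDM5B at 60.5 CPM in ROBO1neg replicate 2 (others 70.9 to 74.0) and ARID1B at 74.7 CPM in the same library (others 83.8 to 87.0). The high ones were BMI1 at 0.310 CPM in ROBO1pos replicate 3 (others 0.111 to 0.155), KDM4A at 74.5 CPM in ROBO1neg replicate 5 (others 60.7 to 64.1), SMARCA4 at 382 CPM in ROBO1pos replicate 5 (others 334 to 339) and SATB1 at 43.1 CPM in ROBO1pos replicate 4 (others 37.7 to 38.5). Without its outlying library, each of the 9 genes stayed called in the same direction.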

How the results depend on the processing

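With a test against 1.5-fold, the genes called across the table numbered 6236 in place of 12250, and 14 and 5 members were called higher in ROBO1pos and ROBO1neg in place of 24 and 13. By complex, that test called 4 demethylases, 1 SWI/SNF gene and 0 PRC2 genes higher in ROBO1pos and 1 PRC2 gene higher in ROBO1neg. Leaving out 1 library gave 12110 to 12354 genes, 23 to 24 members higher in ROBO1pos and 12 to 13 higher in ROBO1neg, and ROBO1 ran from 5.80 to 5.98. Same-numbered libraries of the populations correlated at 0.062 to 0.169 in their deviations from group means, over 0.1 in 3 of 5 pairs. All 5 ROBO1pos libraries correlated best with the ROBO1neg library of their own number. The main fit took no account of replicate number, and whether same-numbered libraries share a batch was not tested. With the replicate block, 12312 genes and 24 and 13 members were called, and the call of every tested member was the same. Removal of the neighbours' median reversed EZH1 (0.42), SUZ12 (0.064), CBX6 (-0.11), CBX8 (0.46), PCGF6 (-0.10) and KMT2C (0.51), ended the calls of DNMT1, MTF2 and SETD2 and called KDM6A, KMT2D, ARID2 and HDAC11. The values of CBX6 and KMT2D, near 0 and not called, changed sign, with single libraries left out giving -0.037 to 0.052 for CBX6 and -0.028 to 0.028 for KMT2D: CBX6 with RLE scaling (-0.00052), no filter beyond 1 count (-0.0038), DESeq2 (-0.0036) and without ROBO1pos replicates 4 (-0.011) or 5 (-0.037) or ROBO1neg replicate 2 (-0.028), and KMT2D with no filter (-0.0029), DESeq2 (-0.0025) and without ROBO1pos replicates 3 (-0.024) or 4 (-0.00087) or ROBO1neg replicates 2 (-0.028) or 4 (-0.0034). Upper quartile scaling ended the call of KMT2C and called PCGF6, KMT2A and ARID2. Without ROBO1pos replicate 3, BMI1 was at -3.13. Causes of these changes were not tested. Low counts limit BMI1, RING1, PCGF2 and SMARCB1.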

Other observations

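Genes that the machinery is known to keep silent differed in both directions. Of 60 developmental regulators repressed by Polycomb in stem cells, 42 were tested, 15 were called higher in ROBO1pos and 21 higher in ROBO1neg (41.6% and 40.4% of all genes), with a median log2 fold change of -0.28. Differences of 2-fold or more were called for 10 of those higher in ROBO1pos and 16 of those higher in ROBO1neg (13.5% and 16.8% of all genes). The median size of the log2 fold change was 1.51 against 0.58 over all genes. The list holds genes at low levels, such as FOXF1 (ROBO1pos 0.227 and ROBO1neg 3.23 CPM) and TBX2 (0.458 and 3.75 CPM), and the medians were not matched for level. NEUROD1, NKX2-5 and BMP2 were at 7.37, 6.71 and 4.02, and WNT5A, GATA2 and FOXC1 at -7.57, -4.07 and -3.20. Of 20 germline genes that DNA methylation silences in somatic cells, 5 had enough reads to be tested. Of these, 2 were called in each direction, 40% each way, which is near the shares of all genes. TEX15 was at 0.95 and TDRKH at -0.17. TDRKH was expressed in both populations, at 27.5 CPM in ROBO1pos and 30.8 in ROBO1neg. The 2 other called genes lay under 5 CPM and are named after their values were seen: TDRD1 was at 3.95 (ROBO1pos 3.83 and ROBO1neg 0.241 CPM) and STK31 at -2.52 (ROBO1pos 0.671 and ROBO1neg 3.89 CPM). Both lists were described by counts only, and whether the differences of the modifiers bear on these genes was not tested.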
